A study of Mus musculus with 10 samples.

Results

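Thy1, Lum, Pdgfrb, Twist1, Prrx1, Lox, Fstl1, Postn, Fn1 and Vim are genes that fibroblasts and other mesenchymal cells are known for, apart from the collagens. They are taken here as a list of gene symbols, with no threshold on a measured value, and all 10 were among the 20206 genes measured, each with 1 row. They were followed in 10 mouse ESC lines, which are undifferentiated, labelled male and of C57Bl/6 background. In 5 lines (LPD lines 1, 4, 6, 20 and 40) the blastocyst came from a mother on low protein diet with 9% casein, and in 5 (NPD lines 8, 15, 21, 36 and 51) from a mother on normal protein diet with 18% casein. Mothers were on these diets until embryonic day 3.5. According to the methods of the study, every line had a different mother, so a line was taken as 1 replicate. The lines were derived on feeder layers of mouse embryonic fibroblasts, and RNA was taken after culture in medium for growth without fibroblasts. The question was whether maternal diet left a difference in these genes and how they varied from line to line.

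Fibroblasts make the interstitial matrix and hold it together. Fibronectin, periostin and lumican are matrix proteins, Lox cross-links collagen and elastin, Pdgfrb is a receptor for platelet-derived growth factor, and Twist1 and Prrx1 are transcription factors of embryonic mesenchyme. Vimentin, fibronectin and follistatin-like 1 are also made by many other cells, including embryonic and extra-embryonic cells, whereas lumican, periostin and Prrx1 are more restricted to mesenchyme. Fibroblasts are the usual feeder cells for mouse ESCs, and ESCs that leave the pluripotent state can also turn on mesenchymal genes.

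The values are normalized estimated counts per gene, deposited by the authors, and read equivalents are the value divided by what 1 read was worth in that line. The lines held 5825025 to 24184561 read equivalents. LPD line 4 was the shallowest, with LPD line 40 at 11295463 and LPD line 6 at 12365531, and the other 7 lines held at least 20348712. A value of 0 therefore allows up to 3 reads, which is a value of 8.67 in LPD line 4 and of 2.18 to 4.72 in the other lines. The pluripotency genes were high in every line, with Pou5f1 between 18250 and 30420 and Nanog between 5141 and 11571. Ddx3y, a Y-linked gene, was 174 in LPD line 4 and 7.70 in NPD line 15 but 1110 to 1493 in the other 8 lines, so these 2 lines went against the label of male lines. The differences between diets are also given without them.

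RefSeq promoter windows on GRCm38.p6 were used for 5 of the 10 members. The 250 bases before a RefSeq start are shown for Prrx1 and Postn, which were near 0 in most lines and high in the same few, and for Twist1 and Vim, which were present in every line and highest in the same line. CG dinucleotides are in capitals, and each sequence runs 5′ to 3′ on the strand of the gene. The Prrx1 window is chr1:163313651-163313900 on the minus strand, the Postn window chr3:54360857-54361106, the Twist1 window chr12:33957421-33957670 and the Vim window chr2:13574061-13574310, the last 3 on the plus strand. The starts are those of RefSeq transcripts and differ from the gene bounds in GENCODE given with the values. In these the Vim window lies inside the gene, and the Prrx1 window overlaps the 5′ end of its gene.
Prrx1: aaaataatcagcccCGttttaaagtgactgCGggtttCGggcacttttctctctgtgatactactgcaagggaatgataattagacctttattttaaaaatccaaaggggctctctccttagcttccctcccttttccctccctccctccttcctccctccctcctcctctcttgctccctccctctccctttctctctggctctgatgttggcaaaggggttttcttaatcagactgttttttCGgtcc
Postn: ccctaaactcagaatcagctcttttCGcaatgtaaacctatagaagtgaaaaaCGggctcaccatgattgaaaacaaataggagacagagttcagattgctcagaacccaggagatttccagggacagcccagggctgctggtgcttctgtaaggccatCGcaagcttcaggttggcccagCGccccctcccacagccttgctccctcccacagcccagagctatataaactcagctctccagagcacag
Twist1: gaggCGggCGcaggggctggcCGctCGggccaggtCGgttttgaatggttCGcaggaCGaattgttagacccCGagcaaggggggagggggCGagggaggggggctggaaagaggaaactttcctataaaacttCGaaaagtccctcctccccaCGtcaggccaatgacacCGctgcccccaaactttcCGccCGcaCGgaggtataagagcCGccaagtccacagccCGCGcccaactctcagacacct
Vim: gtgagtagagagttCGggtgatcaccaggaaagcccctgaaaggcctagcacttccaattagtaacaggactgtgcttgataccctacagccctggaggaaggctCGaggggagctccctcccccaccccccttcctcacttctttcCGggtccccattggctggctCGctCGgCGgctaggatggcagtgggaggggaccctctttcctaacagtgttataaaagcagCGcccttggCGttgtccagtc

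The Twist1 window held 18 CG dinucleotides and the Vim window 8, against a median of 6 over all 32851 windows of this length. Prrx1 and this Postn window held 4 each, and 55.6% of windows held more. A second Postn window, farther upstream, held 3, and the Fstl1 window held 16. The letters TATAAA, searched on both strands, occurred once in the Postn, Twist1 and Vim windows printed above and in 12.4% of all windows. CCAAT occurred once for Twist1 and 2 times for Vim, and in 33.8% of all windows. CATTCC was found only for Prrx1, and in 12.6% of all windows. Of the other letters searched, TGANTCA (6.75% of all windows), CACGTG (6.02%), CANNTG (66.2%, which includes CACGTG) and the CArG box (1.47%) had no match in the 6 member windows. These matches describe the letters of the windows and were not set against the expression values.

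Between genes, levels can be compared only per length, here as the normalized value per kb of the gene's transcript. Fn1 (1843 ± 264 per kb, SD, n = 10 lines) and Vim (1563 ± 490) were highest, and Fn1 exceeded Vim in 6 of 10 lines, so these neighbours were not ordered beyond their spread. Vim was above Fstl1 (746 ± 80.9) in 10 of 10 lines, and Fstl1 was above Twist1 (107 ± 77.5) in 10 of 10. Twist1, Thy1 (53.0 ± 30.4) and Lox (51.4 ± 79.0) were not ordered beyond their spread, since each exceeded the next in 7 of 10 lines. Pdgfrb followed with 7.24 ± 5.12 per kb and lay below Lox in 8 of 10 lines. Lum (4.64 ± 14.4), Prrx1 (3.28 ± 5.96) and Postn (2.10 ± 3.01) were lowest. The mean of Lum came from NPD line 15, and Lum was above Prrx1 in only 1 of 10 lines. The set thus spanned abundant genes expressed in every line and genes listed at 0 in up to 7 of 10 lines.

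**Figure D1:**
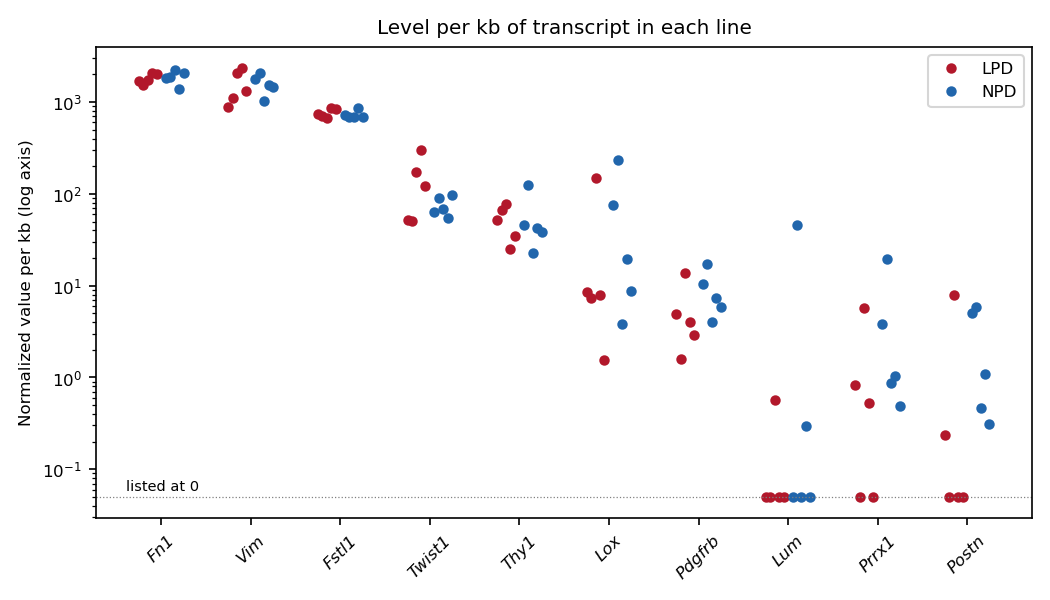
Normalized value per kb of transcript (log axis) for the 10 genes, with each point 1 ESC line (red LPD, blue NPD, 5 lines each) and lines listed at 0 placed on the dotted line. Fn1, Vim and Fstl1 lie in a narrow band far above the others, whereas Lox, Lum, Prrx1 and Postn spread widely.

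Of the surface proteins, Thy1, the GPI-anchored glycoprotein CD90, lies at chr9:44043384-44048579. Its values in LPD lines 1, 4, 6, 20 and 40 were 90.3, 115, 135, 43.7 and 60.4. In NPD lines 8, 15, 21, 36 and 51 they were 80.3, 216, 39.1, 74.4 and 65.9. The groups overlapped, and NPD line 15 stood above all other lines at 2.91 times their median. The log2 fold change, LPD against NPD, was 0.027 with a standard error of 0.42, and did not pass the test (two-sided exact permutation p = 0.968 over all assignments of 5 and 5 lines).

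Pdgfrb, the beta receptor for platelet-derived growth factor, marks pericytes and fibroblasts. It was measured at 26.8, 8.61, 75.2, 21.8 and 15.8 in the LPD lines, in the same order as above. The NPD lines had 57.0, 94.1, 21.9, 39.6 and 31.7. LPD line 6 and NPD lines 8 and 15 were the highest, and the value in LPD line 4 was 2.98 read equivalents, within the limit a count of 0 allows. In all, 3 of 5 LPD lines lay below every NPD line and LPD line 6 lay above all NPD lines but NPD line 15. Of these 3, LPD line 20 was level with NPD line 21 (28.7 against 29.0 read equivalents), and LPD lines 4 and 40 were the shallowest lines. Between diets its log2 fold change was -0.88 with a standard error of 0.53 (two-sided exact permutation p = 0.159).

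Among the transcription factors, Twist1, a basic helix-loop-helix protein of mesoderm and neural crest, was the only member for which LPD line 20 was far above the rest. Its values were 84.6, 83.4, 285, 485 and 199 in the LPD lines and 102, 146, 112, 89.0 and 160 in the NPD lines. LPD lines 6, 20 and 40 were above every NPD line, and LPD lines 1 and 4 were below every NPD line. The LPD lines thus enclosed the NPD lines on both sides, with an SD of 167 against 30.0. Its log2 fold change was 0.60 with a standard error of 0.43 (two-sided exact permutation p = 0.286).

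Prrx1, a homeobox gene of limb and craniofacial mesenchyme, was listed at 0 in LPD lines 4 and 40. It was 5.35, 37.5 and 3.44 in LPD lines 1, 6 and 20. The NPD lines had 25.2, 127, 5.71, 6.77 and 3.23. NPD line 15, LPD line 6 and NPD line 8 were again the highest, and the other 7 lines stayed at or under 6.77. Between diets its log2 fold change was -1.88 with a standard error of 1.11 (two-sided exact permutation p = 0.206).

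Of the matrix genes, Lum encodes lumican, a small leucine-rich proteoglycan that binds collagen fibrils, and lies at chr10:97565128-97572703. It was 111 in NPD line 15, which is 147 read equivalents. LPD line 6 had 1.39 and NPD line 36 had 0.72, which is about 1 read each, and the other 7 lines were listed at 0. Lum was therefore measured above the limit of detection in 1 line, and it passed the filter on low values (a mean value no lower than 10) through that line only. The log2 fold change of -1.27 with a standard error of 1.24 rests on NPD line 15 (two-sided exact permutation p = 0.722).

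Lox, the lysyl oxidase that cross-links collagen and elastin, had the widest spread of all members. In the LPD lines it was 40.7, 34.6, 702, 37.3 and 7.31. In the NPD lines it was 357, 1105, 18.1, 91.9 and 41.7. LPD line 6 and NPD lines 8 and 15 lay between 357 and 1105 and the other 7 lines between 7.31 and 91.9, so that the highest line was 151 times the lowest. Both diets were represented in the high and in the low lines. Compared between diets, the log2 fold change was -1.30 with a standard error of 1.19 (two-sided exact permutation p = 0.381).

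Fn1, fibronectin, is the ligand of several integrins and is at chr1:71585520-71653200 on the minus strand. It varied little, with 14169, 12729, 14470, 17410 and 16809 in the LPD lines and 15038, 15435, 18433, 11521 and 17228 in the NPD lines. Neither NPD line 15 nor LPD line 6, the high lines for Lox, stood out for Fn1. The means were 15118 ± 1945 in LPD and 15531 ± 2628 in NPD lines (SD, n = 5 each), and the log2 fold change was -0.031 with a standard error of 0.13 (two-sided exact permutation p = 0.833).

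Postn encodes periostin, a matricellular protein of periosteum and wounds, at chr3:54361109-54391037. It was the only member that did not pass the filter on low values. LPD line 6 had 25.6, NPD line 15 had 19.0 and NPD line 8 had 16.1. The other NPD lines had 1.48, 3.53 and 0.99, LPD line 1 had 0.75, and LPD lines 4, 20 and 40 were listed at 0. The 3 lines that were highest for Pdgfrb, Prrx1 and Lox were thus highest here as well. The mean log2 value was 1.11 in LPD and 2.58 in NPD lines (two-sided exact permutation p = 0.214).

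Fstl1, a secreted glycoprotein related to follistatin and SPARC, at chr16:37776873-37836514, was the steadiest member. It ranged from 2528 in LPD line 6 to 3301 in NPD line 36, a 1.31-fold range. The remaining LPD values were 2843, 2664, 3271 and 3179, and the remaining NPD values were 2723, 2575, 2596 and 2587. NPD line 36 was above the other 4 NPD lines, which lay within 2575 to 2723. For Fstl1 the log2 fold change was 0.071 with a standard error of 0.10 (two-sided exact permutation p = 0.468).

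Vim encodes vimentin, the type III intermediate filament of mesenchymal cells, and lies at chr2:13573927-13582826. It was 1930, 2428, 4488, 5097 and 2928 in the LPD lines and 3935, 4596, 2279, 3352 and 3234 in the NPD lines. LPD line 20 was highest, followed by NPD line 15, LPD line 6 and NPD line 8, so the order combined that of Twist1 and that of Lox. For Vim the log2 fold change was -0.10 with a standard error of 0.26 (two-sided exact permutation p = 0.738).

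**Figure D2:**
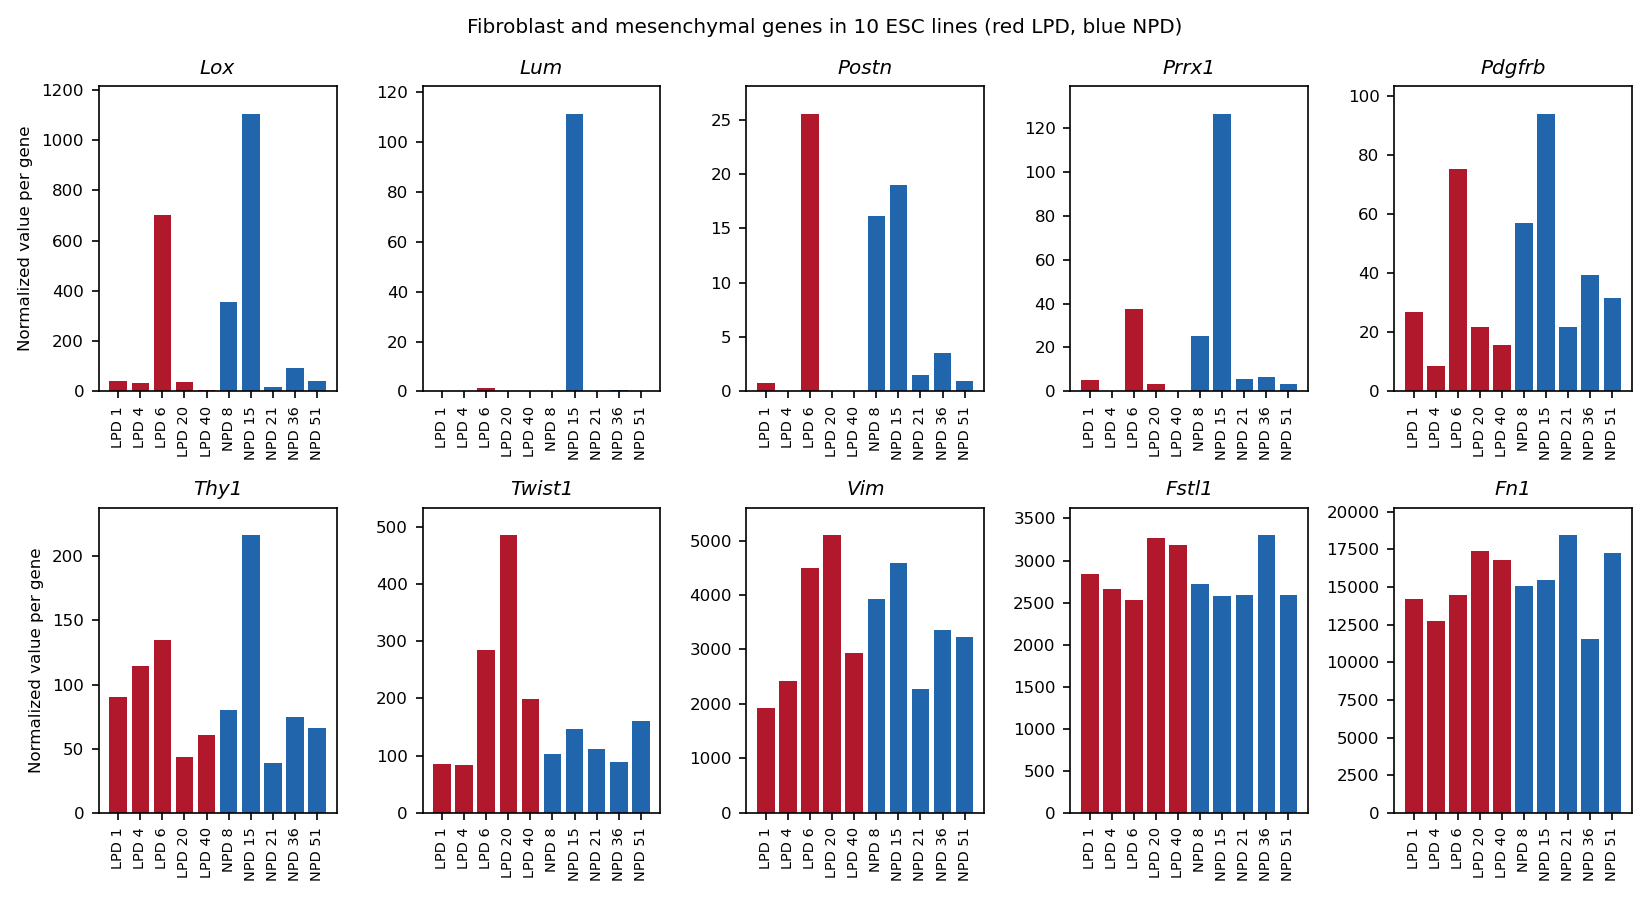
Normalized value per gene (vertical axes, each from 0) of the 10 genes in each of the 10 ESC lines (red LPD, blue NPD). LPD line 6 and NPD lines 8 and 15 are the 3 highest lines for Lox, Postn, Prrx1 and Pdgfrb, LPD line 20 is highest for Twist1 and Vim, and Fstl1 and Fn1 differ little between lines.

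No member passed the test for a difference between diets. In the limma fit of the 14354 genes above the filter, 0 of the 9 tested members had an unadjusted p under 0.05, against 721 genes or 5.02% of all genes tested, 2.84% higher and 2.18% lower in LPD lines. No gene passed an adjusted p (Benjamini-Hochberg) under 0.1, and the adjusted p of every member was at least 0.994. Of the 9 members, 3 were higher and 6 were lower in LPD lines, with a median log2 fold change of -0.10 beside 0.002 over all genes tested. The LPD and NPD values overlapped for all 10 members, and over all genes tested they did not overlap in 1.02%. With 5 lines against 5 the exact permutation test could have reached a p of 0.00794.

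The differences between diets of Pdgfrb, Prrx1 and Lox depended on single lines. Without NPD line 15 the log2 fold change was -0.61 for Pdgfrb and -0.51 for Lox, and the mean log2 values of Prrx1 differed by -1.11. LPD line 6 was the only LPD line of the 3 highest for these genes, so leaving it out alone left only NPD lines high. Without it, 3 of 9 members had an unadjusted p under 0.05, all lower in LPD. Over all 14346 genes this was 5.4% in either direction and 2.82% lower in LPD. The 3 genes share their high lines, so these are not separate calls, and the shares are no test of them. The log2 fold change was then -1.30 for Pdgfrb (two-sided exact permutation p = 0.0317), -2.69 for Prrx1 (exact permutation p = 0.0556) and -2.25 for Lox (exact permutation p = 0.143), so by the exact test only Pdgfrb was under 0.05. Their adjusted p in the limma fits of the alternatives was at least 0.843, 0.885 and 0.917. Prrx1 was listed at 0 in 2 of the 4 LPD lines that were left, so its fold change depends on the pseudocount of 1. When NPD lines 8 and 15 were left out as well, a choice made after the values were seen, the log2 fold change was -0.80 for Pdgfrb (exact permutation p = 0.143), -1.39 for Prrx1 (exact permutation p = 0.229) and -0.69 for Lox (exact permutation p = 0.457), and Prrx1 no longer passed the filter. Without LPD line 4 and NPD line 15, the lines low in Ddx3y, the values were -0.28 for Pdgfrb, -0.60 for Prrx1, -0.38 for Lox and 0.26 for Thy1, and that for Twist1 was 0.95 (exact permutation p = 0.171).

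**Figure D3:**
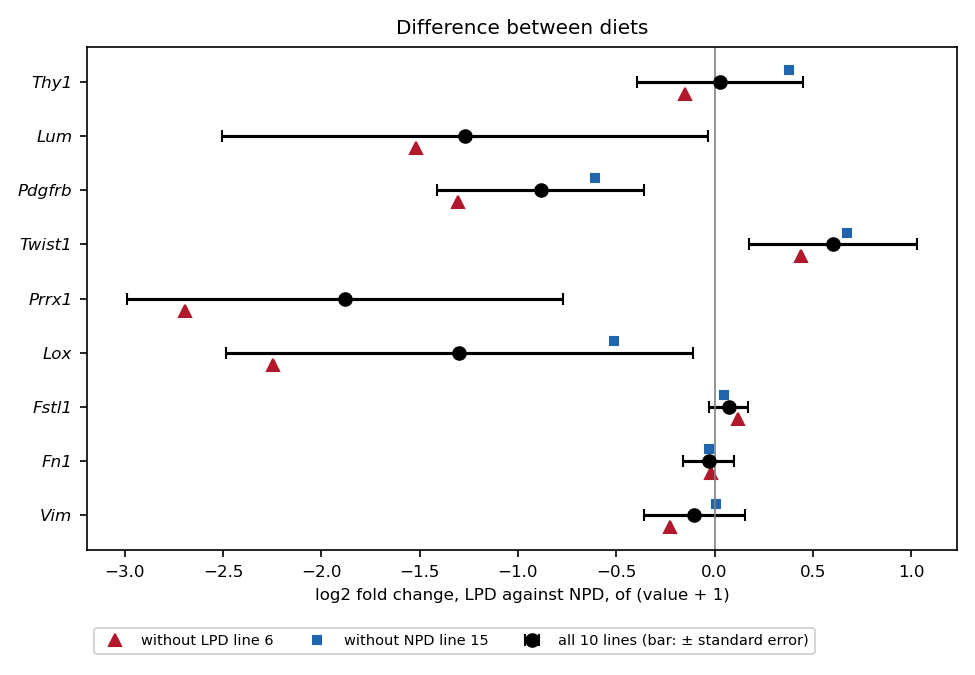
Difference between diets (log2 fold change of value + 1, LPD against NPD) of the 9 tested members. Black points with bars are the estimate and its standard error over 10 lines, triangles the estimate without LPD line 6 and squares that without NPD line 15 (absent for Lum and Prrx1, which then failed the filter). Pdgfrb, Prrx1 and Lox move to -1.30, -2.69 and -2.25 without LPD line 6, while Fstl1 and Fn1 stay near 0.

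The spread over the lines differed widely between members. The SD of log2(value + 1) over the 10 lines was 2.31 for Lox, 2.20 for Prrx1, 2.13 for Lum and 1.02 for Pdgfrb, against a median of 0.27 over all genes tested. Twist1 (0.83), Thy1 (0.74) and Vim (0.47) lay between, whereas Fn1 (0.21) and Fstl1 (0.15) were below that median. A low level widens the spread, so Lox was also set beside the 3691 genes with a mean within 2-fold of its own, of which 0.0813% had a larger SD. For Prrx1 and Lum, 1.26% and 1.62% of such genes did, for Vim 2.42%, for Twist1 4.85%, for Pdgfrb 10.4% and for Thy1 11.9%. Prrx1 and Lum passed the filter only with NPD line 15, at 127 and 111 there. That line carries much of both the mean they were matched on and their SD. Their shares therefore cannot tell whether they varied more than genes of their level. Fn1, though below the median of all genes, varied more than most genes of its level, with 24.2% above it, and for Fstl1 62.5% were above.

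The same 3 lines were the highest for Pdgfrb, Prrx1, Lox and Postn. LPD line 6 and NPD lines 8 and 15 had 57.0 to 94.1 for Pdgfrb, against 8.61 to 39.6 in the other 7 lines. For Postn they had 16.1 to 25.6 against 0 to 3.53. They were picked as the highest lines, so the lack of overlap follows from that choice. Pdgfrb showed no separate cluster, since the step from 39.6 to 57.0 was smaller in fold than that from 8.61 to 15.8. Because the same 3 lines were highest in each gene, coefficients for pairs of Pdgfrb, Prrx1 and Lox are printed over the other 7 lines only, as a description. There r of the log2 values was 0.85 for Pdgfrb with Prrx1, 0.51 for Pdgfrb with Lox and 0.58 for Prrx1 with Lox. Postn was at or near 0 in these 7 lines, and no coefficient is given for it. Prrx1 was also low there, at 0 to 6.77, so its coefficients rest on values near 0. It was listed at 0 in LPD lines 4 and 40, which had the lowest Pdgfrb values, 8.61 and 15.8. LPD line 4 was the shallowest line and LPD line 40 the next, and the part of depth in these coefficients was not tested.

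**Figure D4:**
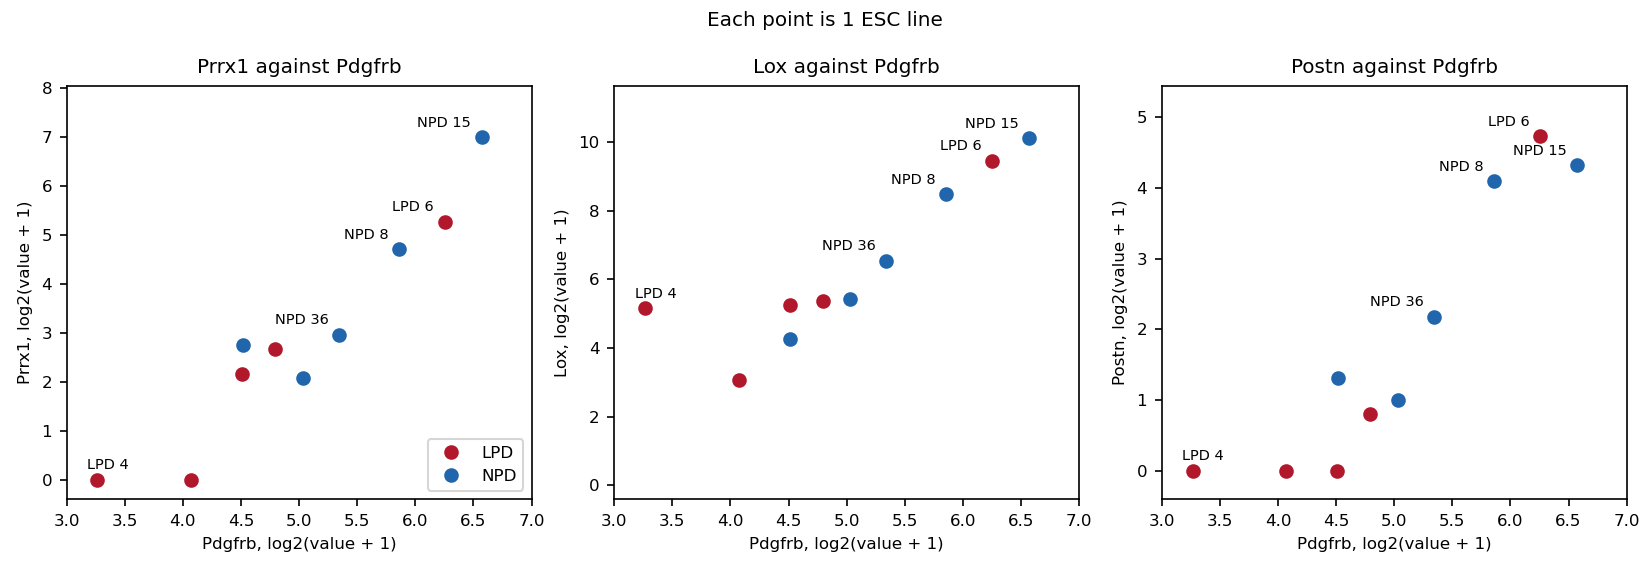
Prrx1, Lox and Postn (vertical axes) against Pdgfrb (horizontal axes), all as log2(value + 1), with each point 1 ESC line (red LPD, blue NPD). LPD line 6 and NPD lines 8 and 15 are at the upper right in each panel, followed on the Pdgfrb axis by NPD line 36.

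Counted over all 10 lines, the 3 separate lines included, 6 of the 36 pairs of the 9 tested members passed an adjusted permutation p under 0.05 by Pearson's r and 2 by Spearman's rho. The 3 pairs of Pdgfrb, Prrx1 and Lox were among the 6, and their separate lines enter that count. Besides these, the 6 pairs were Lum with Prrx1, Lum with Lox and Lum with Thy1, and none of these passed by rho. Lum was 111 in NPD line 15, about 1 read in LPD line 6 and NPD line 36, and listed at 0 elsewhere. The pairs of Lum thus rested on NPD line 15, through which alone it passed the filter. Without that line its values were at the floor, and no coefficient is given for them. Prrx1, which was in several of the 6 pairs, also passed the filter only with NPD line 15. Without that line 1 pair passed by Pearson's r, Pdgfrb with Prrx1, though Prrx1 was then under the filter. Twist1 and Vim, both highest in LPD line 20, had r = 0.69 (adjusted permutation p = 0.115) and rho = 0.62 (adjusted permutation p = 0.195) over the 10 lines, and r was 0.40 without LPD lines 6 and 20. Within LPD lines r of this pair was 0.96 and within NPD lines 0.20, with 5 lines each and no test of the difference. Fn1 and Fstl1 passed with no other member.

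The 3 shallowest lines were all LPD lines. No relation of a member with depth passed (9 relations, adjusted permutation p at least 0.695), but depth as a covariate moved several differences between diets. The log2 fold change went from -0.88 to -0.48 for Pdgfrb, from -1.88 to -1.06 for Prrx1, from 0.60 to 1.01 for Twist1 and from 0.071 to 0.14 for Fstl1, and that of Lox was -1.25. With depth in the fit 0 of 9 members had an unadjusted p under 0.05.

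Marker genes of other kinds were examined beside these lines. The summed value of 8 fibrillar and type VI collagens, the other matrix genes of fibroblasts, ranged from 372 to 3960 in LPD lines with a median of 562, and from 522 to 6722 in NPD lines with a median of 1347. It was highest in NPD line 15 (6722), LPD line 6 (3960) and NPD line 8 (2519), followed by NPD line 36 (1347), and none of the 8 was listed at 0 in any line. Col1a1, the alpha1 chain of type I collagen, was 2709, 1704 and 1016 in NPD line 15, LPD line 6 and NPD line 8, and 131 to 534 in the other lines. The sum of 20 other fibroblast markers had a different order, with 16192 in LPD line 6, 6259 in NPD line 15, 5375 in NPD line 36, 5011 in NPD line 8, 4905 in LPD line 20 and 3797 to 4720 in the other lines. Up to 5 of these 20 were at 0 in a line, with 1, 0 and 3 at 0 in LPD line 6, NPD line 15 and NPD line 8. All 8 collagens were lower in LPD lines with a median log2 fold change of -0.52, and 0 of 8 had an unadjusted p under 0.05. This direction rested on NPD line 15, since without it 4 of 8 were lower, with a median of -0.023. Without LPD line 6 the median was -1.07 with 2 of 8 called, against 5.4% of all 14346 genes tested then. LPD line 6 was the only LPD line of the 3 with the highest sums, so this setting left only NPD lines high. In such bulk RNA, fewer cells of a type and less RNA per cell cannot be told apart. The part of any other cell type in the values of Lox, Pdgfrb, Prrx1, Postn and Lum was not tested.

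The 15 primitive and parietal endoderm markers, none at 0 in any line, took the opposite order in these lines. Their sum was 22212 in NPD line 15, 24858 in LPD line 6 and 26757 in NPD line 8, and 38120 to 68425 in the other 7 lines. Between diets 15 of 15 were higher in LPD lines, with a median log2 fold change of 0.34 and 0 of 15 at an unadjusted p under 0.05. Without NPD line 15 only 9 of 15 were higher, with a median of 0.11. Without LPD line 6 the median was 0.74 with 2 of 15 called, against the same 5.4% of all genes tested. That setting took out the only LPD line among the lowest sums named above. The sum of 10 pluripotent cell markers was 106500 to 136959 in LPD and 100676 to 136913 in NPD lines, with NPD line 8 (100676) the lowest of all lines, LPD line 6 at 106500 and NPD line 15 at 120961. Sox2, Nanog and Pou5f1 had log2 fold changes of -0.16, -0.15 and -0.020 (exact permutation p = 0.127, 0.524 and 0.905).

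**Figure D5:**
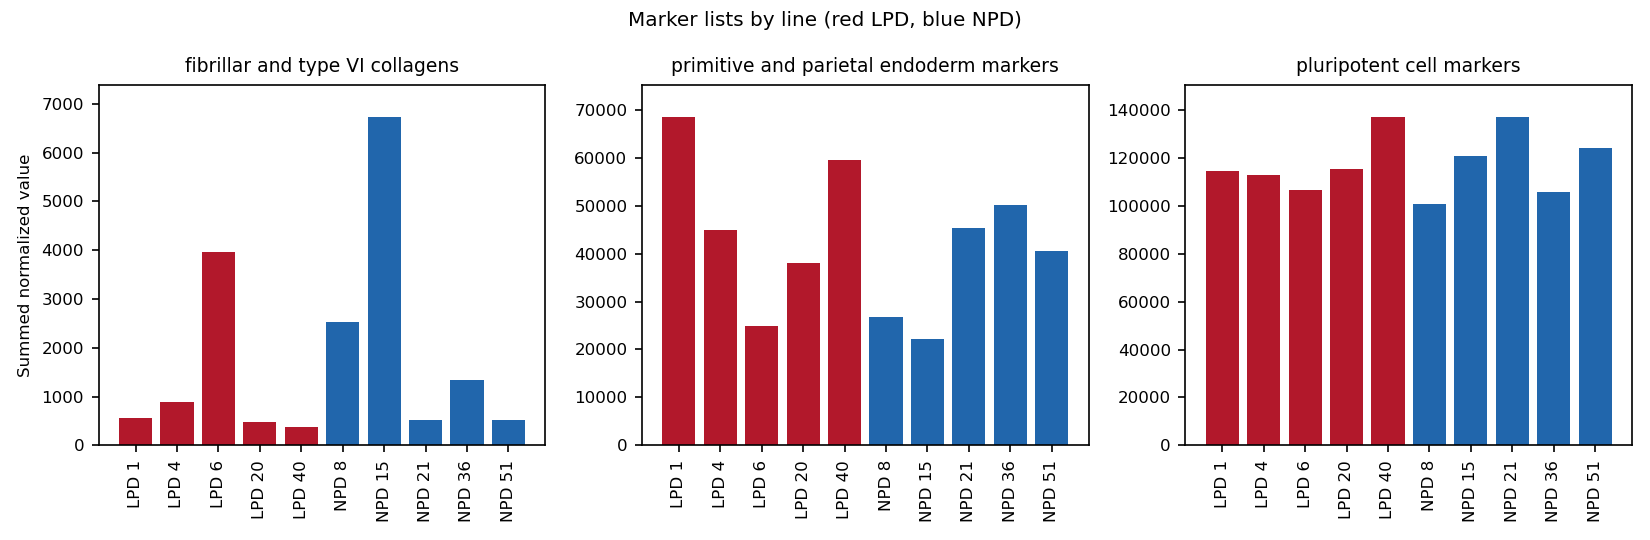
Summed normalized value (vertical axes, each from 0) of 8 collagens, 15 primitive and parietal endoderm markers and 10 pluripotent cell markers in each ESC line (red LPD, blue NPD). NPD line 15, LPD line 6 and NPD line 8 have the highest collagen sums and the lowest endoderm sums, and the pluripotent sums lie between 100676 and 136959.

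Genes that act with the members were counted in the same fit, beside the 5.02% called over all genes. Over all lists, marker lists included, 13 of 159 distinct tested genes had an unadjusted p under 0.05, and none passed adjustment. The lists were chosen with earlier results of these data known, so this share is no independent test against all genes. By the exact permutation test 8 of the 13 were under 0.05, and Snai3, Des, Otx2, Sall2 and Tubb3 were not. Of 8 mesenchymal transcription factors, the relatives of Twist1 and Prrx1, Snai3 was called higher in LPD lines (log2 fold change 0.99, SE 0.43). Among 5 PDGF ligands and the alpha receptor, Pdgfa was called, with 1218 ± 168 in LPD and 972 ± 115 in NPD lines (SD, n = 5 each). Of 15 lysyl oxidase-like and elastic fibre genes, the company of Lox, Eln (elastin) was called, with 51.3 ± 10.1 against 28.1 ± 15.4.

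The 2 lowest p-values of these lists belonged to matricellular genes, the class of Postn. Of 9 tested, Ccn1 and Ccn2, secreted proteins of the CCN family, were called higher in LPD lines. Ccn1 was 6678 ± 3879 in LPD and 1352 ± 267 in NPD lines (log2 fold change 2.01, SE 0.45, adjusted p = 0.432). Ccn2 was 2712 ± 1187 against 779 ± 139 (log2 fold change 1.62, SE 0.37, adjusted p = 0.435). In both genes 4 LPD lines exceeded the highest NPD line. Fst, follistatin, was called higher in its family of 2 tested genes, with 108 ± 30.7 against 56.9 ± 9.28 (SD, n = 5 each).

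Of 12 intermediate filament genes and partners, the relatives of Vim, Des (desmin) was called higher, with 458 ± 156 against 312 ± 56.9. Of 16 genes of the TGF-beta pathway, Smad2, an intracellular mediator, was called higher with a log2 fold change of 0.23 (SE 0.09). The 14 fibronectin receptors and adhesion partners, the 10 mesenchymal stromal surface genes and the 2 tested small leucine-rich proteoglycans had 0 called. Among 16 other fibroblast markers, Timp3, an inhibitor of matrix metalloproteinases, was called higher (339 ± 146 against 171 ± 46.7) and Gas1 lower (69.0 ± 22.9 against 105 ± 29.3), with 8 genes higher and 8 lower in LPD lines.

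For each tested member, the 2 genes with the most similar pattern over the 10 lines are named by Pearson's r of log2 values, as a description over 14354 genes. Lox was nearest to Ehd2 (0.98) and Col1a2 (0.97), the alpha2 chain of type I collagen, which reached 1442 in NPD line 15 beside a median of 96.1. Col1a2 was also high in LPD line 6 (1121) and NPD line 8 (754). These lines stood apart for Lox, Pdgfrb and Prrx1 and enter the r values of these genes. Pdgfrb was nearest to Tpm3-rs7 (0.97) and Zfp973 (0.97), and Prrx1 to Zfp973 (0.96) and Tmprss2 (0.96). Lum was nearest to Agtr2 (0.97) and Col6a2 (0.94). These fell to 0.61 and 0.65 without NPD line 15, where Lum was at 0 or about 1 read in every line left. Thy1 was nearest to Fstl3 (0.96) and Ank (0.94), and Twist1 to Lfng (0.96) and Ptp4a2 (0.94). Vim was nearest to Jade3 (0.93) and Letm1 (0.92), Fn1 to Hmgxb3 (0.94) and Ubr4 (0.91), and Fstl1 to Carmil2 (0.87) and Pdia3 (0.87).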

How the data were processed

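RNA from 10 ESC lines, 5 LPD and 5 NPD, was sequenced. Per the study's methods, the authors trimmed adaptors with cutadapt, removed reads of low quality and quantified GRCm38 transcripts (Ensembl release 88) with Salmon. Their own test used Sleuth 0.30.0 on TPM, which was not used here. The table the authors deposited gives 1 normalized signal value for each gene and line, which its name ascribes to DESeq2 scaling of estimated counts. How transcripts were summed to genes is not given in the sources used here. Values of 1 read per line, from 4295 genes with 1 transcript, gave read equivalents. Only 63.9% to 69.8% of low values over all genes were whole multiples (tolerance 0.15), so no count model was used, and the limits of 3 reads cover counting error only.

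Values were transformed as log2(value + 1). For genes with a mean of at least 10, diets were compared by limma (version 3.58.1, R 4.3.3, trended variance, diet as the only term) and Benjamini-Hochberg adjustment over 14354 genes. Thresholds were 0.1 for adjusted and 0.05 for unadjusted p. The script was tested on simulated data. Members were also tested by two-sided exact permutation over all assignments of lines to diets, and pairs by permutation with 100000 resamples. All calls in gene lists are at the unadjusted threshold. Python 3.11.15 with scipy 1.17.1 was used for the rest. Genes were matched to GENCODE by identifier (19918 of 20206), and coordinates are on GRCm38. Promoters are from RefSeq on GRCm38.p6, and sequences of the other members were not used here.

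The members and gene lists were chosen with earlier results of these data known. Named were all members, up to 2 genes per list at an unadjusted p under 0.05 by smallest p, Ddx3y, Col1a1, Col1a2, Col3a1, Pou5f1, Sox2, Nanog and the 2 genes nearest to each tested member. Alternatives were other pseudocounts (0.1, 0.5 and 10), filters (none, or 100), scalings (equal totals, or quantiles) and variance models (no trend, robust, or array weights), a term for depth, an exact Mann-Whitney test, each line left out in turn, LPD line 4 with NPD line 15 left out and, added after seeing the data, LPD line 6 with NPD lines 8 and 15 left out, and the collagen and endoderm lists without these lines.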

Additional observations from a re-analysis of the deposited data

Results flagged for a closer look

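Of 20 groups of 5 lines (10 genes in each diet), 9 held a line whose gap to the nearest other line was over 0.71 of the range of the group, where chance gives about 1 in 20 and 6.76% of such groups did over all genes tested. The values are not on a log scale, and a group with 4 lines at 0, as Lum in LPD lines, meets this with any value above 0. LPD line 6 accounted for 5 of them, with Lox at 702 beside 40.7 in the next LPD line, Pdgfrb at 75.2 beside 26.8, Prrx1 at 37.5 beside 5.35, Postn at 25.6 beside 0.75 and Lum at 1.39, about 1 read, beside 0. NPD line 15 accounted for 3, with Lum at 111 beside 0.72, Prrx1 at 127 beside 25.2 and Thy1 at 216 beside 80.3. The last was Fstl1 in NPD line 36 at 3301 beside 2723. The genes share their lines, so these are not independent of each other.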

How the results depend on the processing

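No paired analysis was possible because the line numbers of the LPD and NPD lines do not overlap. The count of all genes at an adjusted p under 0.1 was 0, with 721 at an unadjusted p under 0.05. It was 1 with array weights, 1 without LPD line 6 and NPD lines 8 and 15, and 0 to 40 with each line left out, 40 without LPD line 40. The members called ranged from 0 to 3 with each line left out, 3 without LPD line 6 and 0 under the other alternatives. Log2 fold changes near 0 changed sign. Thy1 was -0.0064 when rescaled to the same total and -0.29 with depth as a covariate, and ranged from -0.23 to 0.38 with each line left out. Fn1 was 0.062 with depth as a covariate, 0.031 without LPD line 4 and NPD line 15, and -0.13 to 0.036 with each line left out. Vim was 0.018, 0.10 and -0.27 to 0.076 under the same settings. With each line left out, Pdgfrb ranged from -1.30 to -0.56 and Prrx1 from -2.69 to -1.38. Lox ranged from -2.25 to -0.51, and all 3 were lowest without LPD line 6. Members with values near 0 moved with the pseudocount. Prrx1 was -3.17 with 0.1 and -0.82 with 10, and Lum was -1.85 and -0.70. Prrx1 and Lum failed the filter without NPD line 15, where their mean log2 values differed by -1.11 and 0.056, so Lum then turned. Twist1 and Fstl1 kept their direction under every alternative run, and the medians of Lum compared by the Mann-Whitney test were equal. Pairs of members that passed by Pearson numbered 3 with a pseudocount of 0.1 and 1 to 10 with each line left out, 10 without LPD line 4 and 1 without NPD line 15. Genes called in the lists numbered 9 to 19 under the alternatives run. The cause of these changes was not tested. At 2.89 per read in LPD line 4, Prrx1, Lum and Postn were listed at 0 there. Pdgfrb had 2.98 read equivalents in that line, too few for a precise value.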

Other observations

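Markers of other lineages, outside the comparisons above, showed few calls at an unadjusted p under 0.05, and none after adjustment. Over all genes tested 5.02% were called. All 6 primed epiblast markers were lower in LPD lines, with a median log2 fold change of -0.31, and Otx2 (211 ± 98.5 in LPD, 373 ± 140 in NPD, SD, n = 5 each) and Sall2 (73.1 ± 9.24 against 141 ± 70.3) were called. Of 4 tested neural markers, Tubb3 was called lower in LPD lines, with 533 ± 92.2 against 695 ± 134. The tested visceral endoderm (4), mesoderm (2), trophectoderm (5) and macrophage and endothelial (5) markers had 0 called. By the exact permutation test none of Otx2, Sall2 and Tubb3 was under 0.05.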
